A study of Mus musculus with 10 samples.

Results

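The promoter windows described here are those at which mature oocytes without Tet2 were more methylated than oocytes of both wild-type (WT) groups. Of 40537 windows on the autosomes and the X chromosome that were listed for all 3 groups, 516 were kept (1.27%). At each of these member windows the level in the Tet2 knockout (Tet2KO) was at least 20 percentage points above those of WT oocytes of 2 months and of 11 months. A point is 1 percentage point of the methylation level, which is 100 times the methylated CpG calls over all CpG calls of a window. The member windows were chosen on these levels, so their levels are a description and carry no test.

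The cells were metaphase II oocytes, the ovulated eggs that await fertilisation, of mice of a mixed C57BL6/129 background. The groups were WT at 2 months (4 libraries, called young WT), WT at 11 months (3 libraries, called old WT) and Tet2KO at 2 months (3 libraries). No Tet2KO oocytes of 11 months were analysed here, and the knockout allele is not described in the sources used here. The cell type was taken from the labels, since promoter methylation gives no expression of oocyte markers. Each group was deposited as 1 pooled table, so the spread between animals, oocytes or libraries is not known, and no difference has a replicate check.

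Oocytes acquire DNA methylation while they grow, mostly across transcribed gene bodies, where the de novo methyltransferase Dnmt3a acts with its cofactor Dnmt3l. Promoters rich in CpG, the methylated dinucleotide, usually stay free of it. TET enzymes, of which Tet2 is a member, oxidise methylcytosine to hydroxymethylcytosine and further products, a route to the removal of methylation. Bisulfite sequencing, used here, reads methylcytosine and hydroxymethylcytosine alike as methylated. A level in Tet2KO therefore covers both forms.

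The member windows ranged from promoters with almost no CpG to CpG-dense ones. The densest promoters among the windows named below are not printed. From 250 bases before to 50 after the start, the Stim1 promoter held 38 CpGs and Abr 33, compared with 23 for Myo16. The 8 sequences shown were picked among the named windows to run from the CpG-poor Rpl3l and Islr to the denser Tmem238 and Myo16. Each is the 250 bases before a RefSeq transcript start, written 5′ to 3′ in the direction of the gene, with every CpG in capitals (RefSeq, GRCm38.p6, the build that mm10 represents).
Rpl3l: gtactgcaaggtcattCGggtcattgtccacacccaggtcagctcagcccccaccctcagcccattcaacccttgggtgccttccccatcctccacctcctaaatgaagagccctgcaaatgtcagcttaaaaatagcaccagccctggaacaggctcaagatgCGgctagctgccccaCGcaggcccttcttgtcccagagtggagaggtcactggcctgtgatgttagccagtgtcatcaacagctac
Islr: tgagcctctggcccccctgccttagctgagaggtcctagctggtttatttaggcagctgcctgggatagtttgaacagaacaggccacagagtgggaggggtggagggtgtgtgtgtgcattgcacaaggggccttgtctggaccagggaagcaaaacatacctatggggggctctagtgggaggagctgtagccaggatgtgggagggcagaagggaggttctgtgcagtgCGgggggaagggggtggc
Urad: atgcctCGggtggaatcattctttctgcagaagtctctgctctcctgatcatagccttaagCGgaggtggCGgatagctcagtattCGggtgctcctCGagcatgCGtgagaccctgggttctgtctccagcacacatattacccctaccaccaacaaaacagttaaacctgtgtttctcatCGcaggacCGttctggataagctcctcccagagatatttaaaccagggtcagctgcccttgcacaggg
Phyh: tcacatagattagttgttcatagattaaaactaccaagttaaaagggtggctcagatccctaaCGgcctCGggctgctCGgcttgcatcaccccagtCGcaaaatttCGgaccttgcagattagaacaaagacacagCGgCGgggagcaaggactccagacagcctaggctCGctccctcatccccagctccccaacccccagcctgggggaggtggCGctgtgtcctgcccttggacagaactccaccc
Gpr63: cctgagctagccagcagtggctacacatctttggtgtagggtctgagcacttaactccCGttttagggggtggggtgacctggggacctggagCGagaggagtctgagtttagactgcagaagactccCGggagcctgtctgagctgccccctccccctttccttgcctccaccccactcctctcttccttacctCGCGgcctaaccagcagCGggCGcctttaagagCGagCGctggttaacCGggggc
Shd: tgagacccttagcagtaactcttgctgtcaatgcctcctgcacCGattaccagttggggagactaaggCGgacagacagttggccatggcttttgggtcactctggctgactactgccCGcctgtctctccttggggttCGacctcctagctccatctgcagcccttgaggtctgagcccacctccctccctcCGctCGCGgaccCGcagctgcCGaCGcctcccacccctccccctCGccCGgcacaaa
Tmem238: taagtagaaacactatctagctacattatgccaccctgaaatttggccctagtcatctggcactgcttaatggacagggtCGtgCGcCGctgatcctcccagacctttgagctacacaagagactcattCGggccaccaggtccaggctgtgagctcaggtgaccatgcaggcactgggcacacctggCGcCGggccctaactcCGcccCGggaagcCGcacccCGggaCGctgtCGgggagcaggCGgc
Myo16: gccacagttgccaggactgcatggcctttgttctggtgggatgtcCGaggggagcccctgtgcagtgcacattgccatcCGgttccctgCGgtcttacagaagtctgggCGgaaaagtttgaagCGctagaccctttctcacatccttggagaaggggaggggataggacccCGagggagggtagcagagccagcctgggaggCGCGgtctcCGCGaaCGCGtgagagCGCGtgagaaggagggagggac
The stretch of Islr (chr9:58158555-58158804, minus strand) held 1 CpG and that of Rpl3l (chr17:24732435-24732684, plus strand) 3. Urad (chr5:147322441-147322690, minus strand) held 8, Phyh (chr2:4918746-4918995, plus strand) 9 and Gpr63 (chr4:24966190-24966439, plus strand) 10. Shd (chr17:55970232-55970481, plus strand) held 12, Tmem238 (chr7:4789561-4789810, minus strand) 13 and Myo16 (chr8:10153661-10153910, plus strand) 14. Most CpGs of the 3 densest stretches sat in the part nearer the transcript start, the 3′ part of the printed sequence. The level of a window is not that of the printed bases alone, since a window spans 1000 bp to each side of a transcript start.

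Across the 516 member windows the median level was 59.0% in Tet2KO, 16.7% in young WT and 19.9% in old WT. Over all 40537 shared windows the medians were 2.17%, 3.23% and 2.72% in the same order. The WT levels of member windows were spread widely. In 115 member windows both WT levels lay under 10%, in 184 the higher WT level was from 10% to under 30%, in 141 from 30% to under 60%, and in 76 it was 60% or more. The Tet2KO level was 80% or more in 121 windows, from 50% to under 80% in 201 and under 50% in 194. A switch from under 10% in both WT pools to 50% or more in Tet2KO was found at 7 windows. Of all shared windows that low in WT, 0.422% were members, compared with 7.58% of those whose higher WT level was from 30% to under 60%.

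**Figure D1:**
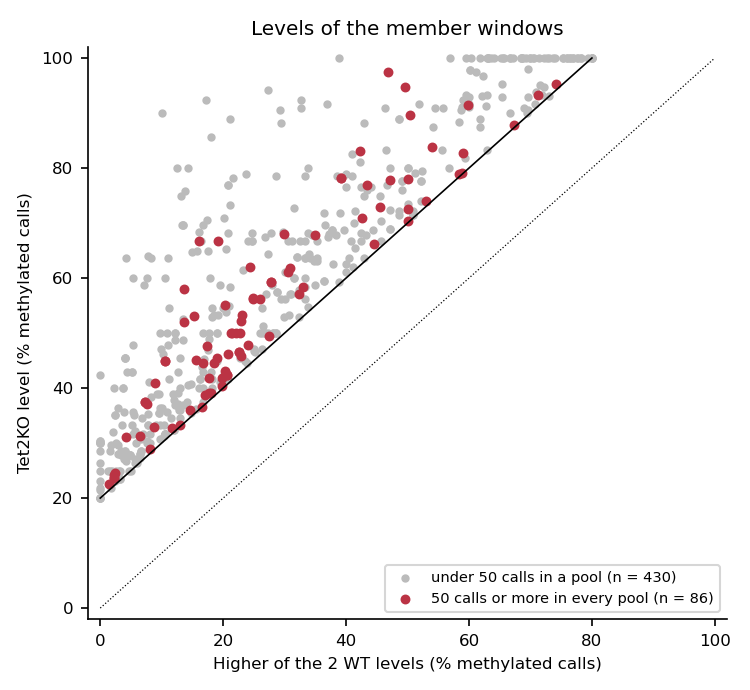
The higher of the 2 WT levels (x axis, % methylated calls) is plotted against the Tet2KO level (y axis, same unit) for the 516 member windows. The solid line marks 20 points above WT, the dotted line equal levels, and the 86 windows with 50 calls or more in every pool (red) lie between 22.6% and 97.5% in Tet2KO.

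Depth set how firmly a window's level was known. The deposited tables held 15046863 CpG calls for young WT, 30431118 for old WT and 8610762 for Tet2KO, of which mitochondrial windows, left out here, took 37.6%, 44.2% and 36.5%. Member windows had a median of 48.5, 78.5 and 23 calls in young WT, old WT and Tet2KO. Over all shared windows the medians were 131, 245 and 79 calls, at which 0 methylated calls would allow a level of up to 2.29%, 1.22% and 3.80%. The Tet2KO level rested on under 20 calls at 226 member windows (43.8%), compared with 14.2% of all shared windows. The Newcombe 95% interval of the difference from at least 1 WT pool included 0 at 100 member windows. These intervals cover counting error only, and calls from PCR copies or from the same read are not independent.

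The share of windows that passed the rule fell with the calls behind the Tet2KO level. It was 3.92% of windows with 10 to 19 Tet2KO calls, 2.02% with 20 to 49, 0.981% with 50 to 99 and 0.119% with 100 or more. The mirror set, windows at least 20 points lower in Tet2KO than in both WT pools, held 279 windows (0.688%) and fell in the same way, from 1.86% to 0.0790%. Of 24208 windows that held 50 calls or more in each pool, 86 were highest in Tet2KO and 38 lowest. By the same rule at all depths, old WT was highest at 363 windows (0.895%) and lowest at 203 (0.501%), and young WT was highest at 769 (1.9%) and lowest at 606 (1.49%). At 50 calls or more the numbers were 84 and 34 for old WT, and 369 and 89 for young WT. A surplus of highest over lowest windows was therefore not particular to Tet2KO. The part of depth in the number of member windows was not tested.

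**Figure D2:**
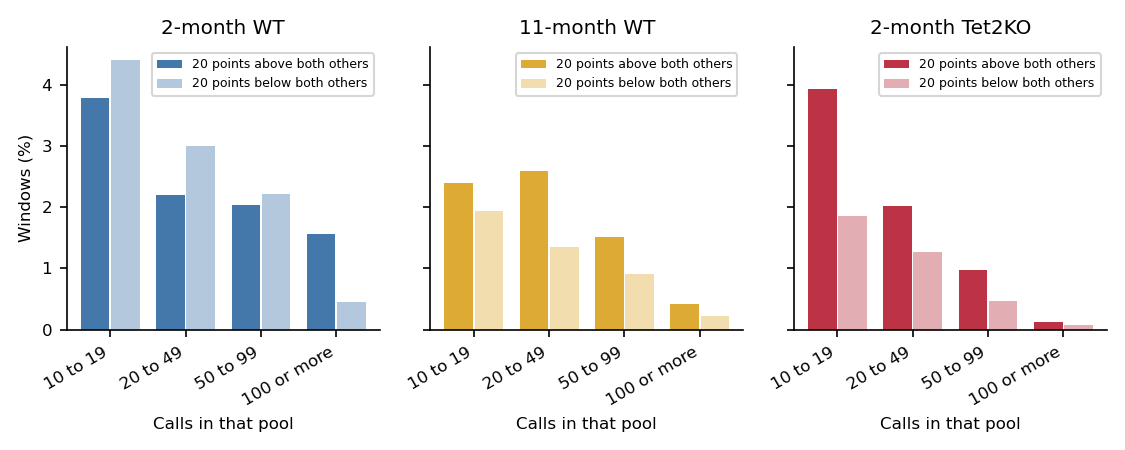
Each panel gives, for windows grouped by their calls in that pool (x axis), the percent of windows (y axis) at least 20 points above (dark bars) or below (light bars) both other pools. In Tet2KO the dark bars drop from 3.92% at 10 to 19 calls to 0.119% at 100 calls or more.

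Windows can overlap, since a gene may have several annotated starts. Merging overlapping member windows gave 417 separate loci, of which 345 held 1 window, 57 held 2 and 15 held 3 or more. They lay on 20 chromosomes. Chromosome 6 held 9.83% of member loci and 5.70% of all 24830 loci of shared windows, chromosome 17 held 6.71% and 4.25%, and the X chromosome 5.28% and 3.00%. Chromosome 11 held 4.56% and 7.88%, and chromosome 19 held 0.959% and 2.80%. These shares are descriptions from 1 pool a group.

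A RefSeq start within 200 bp of the window's centre gave a symbol to 245 member windows (182 symbols), and to 57.1% of all shared windows. The best measured members with a symbol came first. At 15 named windows with 50 calls or more in every pool, the smaller of the differences from the WT pools ran from 30.3 to 47.5 points. They were chosen as the largest of 47 such symbols. Their genes had varied roles, and several encode signalling proteins.

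Among receptors, Gpr63, a G protein-coupled receptor, had the largest smaller difference of the 15, while Urad, Shd and Plpp2 differed more from young WT. Its window (chr4:24965517-24967516) was at 19.2% of 151 calls in young WT, 11.6% of 302 calls in old WT and 66.7% of 117 calls in Tet2KO (Wilson 95% interval 57.7 to 74.6). The Tet2KO interval lay well above both WT levels, and the difference from young WT was 47.5 points (interval 36.1 to 57.1). S1pr2, a receptor for the lipid sphingosine-1-phosphate, was at 23.5%, 30.5% and 61.1% in young WT, old WT and Tet2KO, from 251, 419 and 72 calls. Ddr1, a collagen-binding receptor tyrosine kinase, was at 43.4%, 37.3% and 76.9%, from 129, 126 and 78 calls. The Ddr1 window lay inside the gene, between a Ddr1 window at 88.3%, 87.2% and 85.7%, which overlaps it, and a separate one at 0%, 3.31% and 0%.

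Downstream of receptors, windows of enzymes and adaptors of lipid and small GTPase signalling were members. Plpp2, a lipid phosphate phosphatase, was at 29.2% in young WT, 39.2% in old WT and 78.2% in Tet2KO. Pik3c2b, a class II phosphoinositide kinase, was at 20.3% of 246, 19.4% of 485 and 55.2% of 145 calls. By the deposited fraction, which weights each CpG position equally, Pik3c2b was at 32.5%, 19.2% and 36.7%, so its Tet2KO level stood only 4.21 points above young WT on that scale. Shd, an adaptor with an SH2 domain whose promoter is printed above, was at 40.4% of 183, 50.4% of 363 and 89.7% of 87 calls. Arhgef10l, a guanine nucleotide exchange factor, was at 29.8%, 25.9% and 68.1%, from 57, 116 and 94 calls. In all but Pik3c2b of these 4 windows the deposited fraction also stood 20 points or more above both WT pools.

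Enzymes of metabolism and translation formed another part of the well-measured members. Phyh, the peroxisomal phytanoyl-CoA hydroxylase, an oxygenase that like TET enzymes depends on alpha-ketoglutarate, was at 13.7% of 183 calls in young WT, 10.8% of 268 calls in old WT and 58% of 50 calls in Tet2KO. Its differences were 44.3 points (interval 29.4 to 57.7) and 47.2 points (32.8 to 60.2). Riox1, a ribosomal oxygenase of the same enzyme class, was at 24.4%, 35.0% and 67.8%, from 270, 486 and 146 calls, in a window inside the gene Heatr4. Eef2k, the kinase that inhibits translation elongation factor 2, was at 48.0%, 59.8% and 91.4%, from 179, 373 and 58 calls, while a separate Eef2k window was at 3.33%, 7.23% and 3.03%. Urad, an enzyme of uric acid breakdown, was at 5.05% of 99, 47.1% of 87 and 77.8% of 63 calls. Unlike the 3 windows before it, Urad differed more between the WT pools than between old WT and Tet2KO.

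The remaining well-measured windows belonged to structural and less characterised proteins. Islr, an immunoglobulin superfamily protein of stromal cells with the CpG-poorest promoter printed above, was at 42.2% of 135 calls in young WT, 40.2% of 239 calls in old WT and 83.1% of 83 calls in Tet2KO. Haus7, a subunit of the augmin complex that builds spindle microtubules, was at 30.9%, 28.9% and 61.8%, from 94, 135 and 55 calls. Both showed near-equal WT levels and a higher Tet2KO level.

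Tmem238, a transmembrane protein, had the most Tet2KO calls of the 15. It was at 5.23% of 554 calls in young WT, 8.92% of 897 calls in old WT and 40.9% of 269 calls in Tet2KO (interval 35.2 to 46.9). Myo16, an unconventional myosin, was at 1.57% of 447, 7.23% of 567 and 37.5% of 96 calls (interval 28.5 to 47.5). These CpG-rich promoters were nearly unmethylated in WT and partly methylated in Tet2KO. By the deposited fraction, 14 of the 15 windows stayed 20 points or more above both WT pools, Pik3c2b being the exception.

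**Figure D3:**
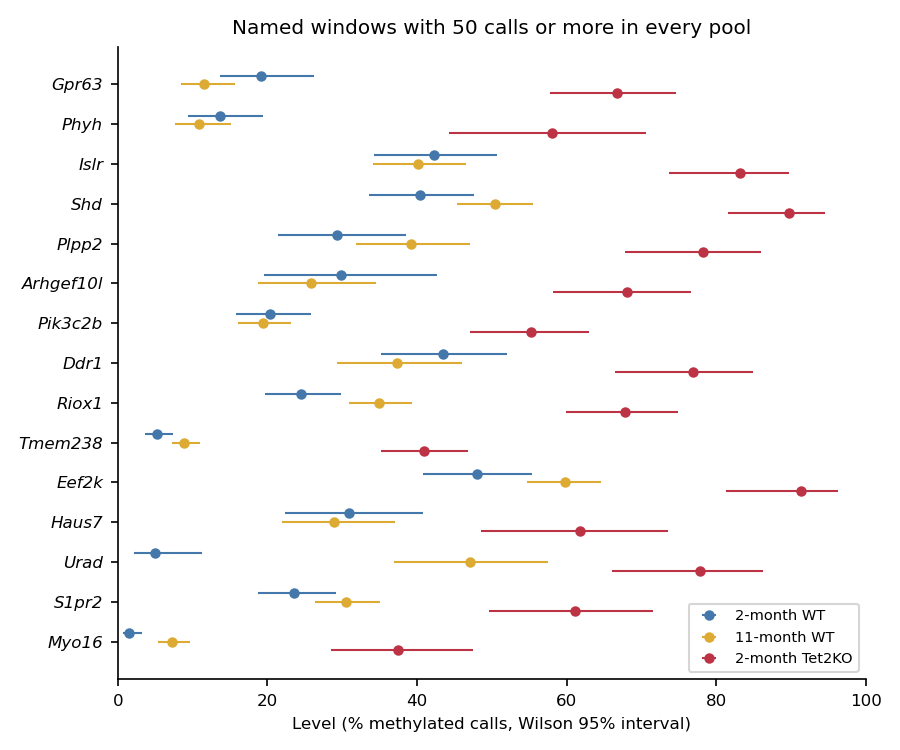
Levels (x axis, % methylated calls) of the 15 named windows with 50 calls or more in every pool are shown for 2-month (young) WT (blue), 11-month (old) WT (yellow) and Tet2KO (red), with Wilson 95% intervals of counting error as bars. The Tet2KO level runs from 37.5% at Myo16 to 91.4% at Eef2k.

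Larger differences were found at windows with fewer Tet2KO calls. The 10 largest differences of named windows, by the smaller of the 2 for each window, ran from 42.7 to 61.2 points, and 8 of these windows had under 50 Tet2KO calls. Rpl3l, a striated muscle counterpart of ribosomal protein L3, led them at 14% of 43 calls in young WT, 29.3% of 99 calls in old WT and 90.5% of 42 calls in Tet2KO (interval 77.9 to 96.2). Its window (chr17:24731685-24733684) lay inside the gene. A separate Rpl3l window at another start was also a member, at 0% of 118, 19.2% of 78 and 53.3% of 30 calls. Ttc4, a co-chaperone with tetratricopeptide repeats, was at 7.03% of 128, 8.25% of 303 and 63.6% of 11 calls, with a Tet2KO interval of 35.4 to 84.8. Ntn5, a netrin family protein, was at 13.6%, 20.2% and 70.8%, the last from 24 calls. Gcm2, a transcription factor of parathyroid development, was at 6.17%, 33.3% and 78.6%, the last from 14 calls.

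Paired genes accounted for others of these windows. Znrd1, which encodes a subunit of RNA polymerase I, and its antisense gene Znrd1as shared a locus of 5 member windows, so they are not separate observations. The Znrd1as window was at 13.4% of 232 calls in young WT, 8.84% of 147 calls in old WT and 69.6% of 23 calls in Tet2KO. By the deposited fraction its Tet2KO level was 40.0%, and that of the Znrd1 window stood 18.1 points above young WT. Nudt1, which clears oxidised nucleotides, shares its start region with Mrm2, a mitochondrial rRNA methyltransferase. The window was at 24.6% of 69, 20.9% of 225 and 68.2% of 44 calls. Bmf, a pro-apoptotic protein of the Bcl2 family, was at 4.35%, 24.0% and 66.7%, from only 23, 25 and 15 calls. A separate Bmf window with 184, 679 and 120 calls was at 0.543%, 2.80% and 5%.

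The named windows with the most calls in their least covered pool showed smaller differences. The 10 deepest had 122 to 269 Tet2KO calls and smaller differences from 20.4 to 34.8 points. Besides Pik3c2b, Riox1 and Tmem238 they were Anxa4, Unk, Tkt, Ppp1r3f, Stim1, Abr and Septin11. Unk, an RNA-binding protein that represses translation, was at 3.11% of 225 calls in young WT, 6.51% of 461 calls in old WT and 31.3% of 134 calls in Tet2KO. Anxa4, a calcium-dependent membrane-binding protein, was at 20.7%, 16.7% and 46.1%, from 140, 264 and 141 calls. Abr, a GTPase-activating protein for Rac, was at 57.6%, 74.2% and 95.3%, from 118, 291 and 127 calls.

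Stim1, the calcium sensor of the endoplasmic reticulum, was at 33.7% in young WT, 52.9% in old WT and 74.0% in Tet2KO. Tkt, transketolase of the pentose phosphate pathway, was at 10.1%, 19.9% and 41.8%. Ppp1r3f, which targets a phosphatase to glycogen, was at 8.44%, 17.0% and 38.8%, and Septin11, a filament-forming GTPase, at 13.0%, 10.4% and 33.3%. Septin11 windows that overlap this one but fell short of the rule had smaller differences from 13.5 to 17.7 points. A Stim1 window that overlaps the named one fell short at 19.98 points. By the deposited fraction, Pik3c2b, Stim1, Tkt, Ppp1r3f and Septin11 fell short of 20 points above at least 1 WT pool, and 5 of the 10 deepest windows kept it. Over all member windows 328 of 516 kept it, and 47 of the 86 with at least 50 calls in every pool. Which windows passed thus depended on whether calls or CpG positions were weighted equally.

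At the edge of the rule, among windows that the naming rule allows at 1 a symbol, the 3 just inside were those of Il9, an interleukin, S100a7a, a calcium-binding protein of skin, and Madcam1, an adhesion molecule of gut vessels. Their smaller differences were 20, 20 and 20.2 points. The 3 just outside were Gcnt2, Pard6a and Lypd3, each at 19.9 points. Il9 was at 80%, 75% and 100% in young WT, old WT and Tet2KO. It rested on 10, 24 and 13 calls, and the intervals of both its differences included 0. Madcam1 was at 27.4%, 58.8% and 79.1%, while Lypd3, outside, was at 30.2%, 46.8% and 66.7%. The windows on each side of the rule were thus much alike in level. A window with far more calls than any other member, on chromosome 13 (chr13:85126515-85128514, no symbol), held 13218 Tet2KO calls over 20 CpG positions. It was at 71.3%, 49.7% and 93.3% in young WT, old WT and Tet2KO, and its 661 calls per position stand against a median of 1.66 in member windows.

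The WT pools lay within 10 points of each other at 330 of 516 member windows (64.0%), compared with 86.0% of all shared windows. Old WT was more than 10 points above young WT at 130 member windows (25.2%, compared with 6.28% of all). It was more than 10 points below at 56 (10.9%, compared with 7.67%). The rule read both WT levels, so these shares are a description. Among the 130, chosen here after their values were seen, was a window of Aqr, a splicing helicase, at 1.05% of 190 calls in young WT, 68.4% of 57 calls in old WT and 100% of 26 calls in Tet2KO. Pparg, the nuclear receptor of fat cell formation, had a window inside the gene at 12.4% of 306, 53.9% of 308 and 83.9% of 93 calls. In both, old WT lay between young WT and Tet2KO. A Pparg window that overlaps this one was at 5.18%, 63.2% and 26.6%, highest in old WT, so the order of the pools changed within the gene. Il15ra, a cytokine receptor chain, showed the other order of the WT pools, at 23.1% of 117, 9.96% of 251 and 53.2% of 62 calls. Other Il15ra windows that overlap it were highest in young WT, such as 1 at 30.1% of 156, 10.3% of 262 and 25% of 88 calls.

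Sequence was not used by the rule, and member windows were poorer in CpG than windows in general. Of member windows, 56.0% (Wilson 95% interval 51.7 to 60.2) had 5 to 29 CpG positions read in whichever pool covered most of them, compared with 27.9% of all shared windows. With 80 or more positions the shares were 7.36% and 36.5%. Overlapping windows share calls, which these intervals do not take into account. The RefSeq promoter sequence, 250 bases before to 50 after the start, does not depend on depth. It held a median of 9 CpGs in the 245 member windows with a symbol and 18 in all 23140 such windows. The observed over expected CpG ratio, which is CpG count times length over the product of C and G counts, was under 0.6 in 64.9% and 38.6%.

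Depth and CpG number moved together, so member shares were also taken within classes of both. Among windows with 20 to 49 Tet2KO calls, 1.71% of those with 5 to 29 covered positions were members, 2.27% of those with 30 to 79 and 7.63% of 131 with 80 or more. With 50 to 99 calls the shares were 0.839%, 1.02% and 0.838%. With 100 calls or more, 1 of 23 windows with 5 to 29 positions was a member, and the shares were 0.118% with 30 to 79 and 0.111% with 80 or more. Below 50 Tet2KO calls the member share thus rose with covered positions, and from 50 calls on it did not. The depth classes match Tet2KO calls and not WT calls. At 50 calls or more in every pool, promoters of member windows with a symbol held a median of 13.5 CpGs, compared with 23 in all such windows.

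**Figure D4:**
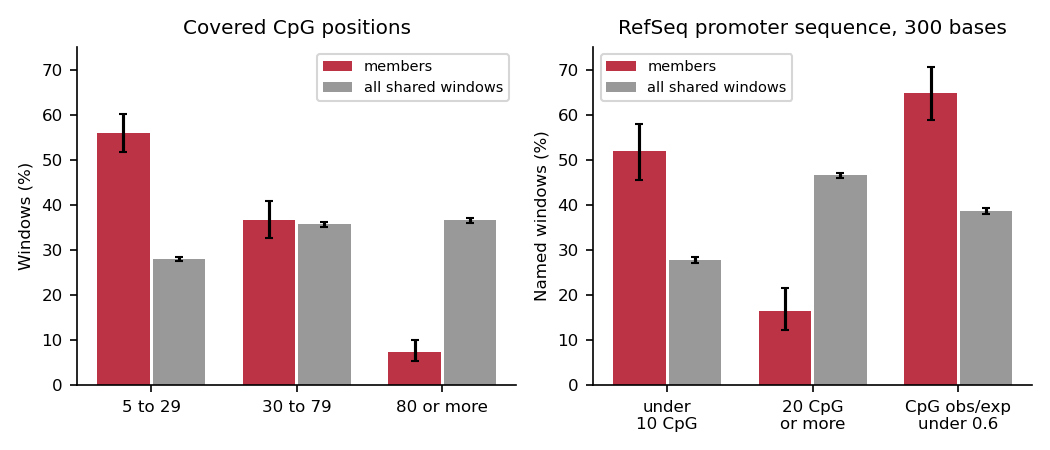
Percent of windows (y axis) by covered CpG positions (left) and by CpG content of the 300-base RefSeq promoter (right) is shown for member windows (red) and all shared windows (grey), with Wilson 95% intervals. CpG-poor promoters, with under 10 CpGs, make up 51.8% of member windows with a symbol and 27.7% of all such windows.

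Member windows lay inside genes somewhat more often than all shared windows, though not among windows with 5 to 29 covered positions. The shares of 5 short motifs in member promoters are given beside those of all RefSeq promoters. The window's centre lay inside a protein-coding gene, over 1000 bp from its ends, at 33.9% of member windows and 27.1% of all shared windows. Within windows of 5 to 29 covered positions the shares were 38.8% and 42.0%, and within those of 30 to 79 they were 26.5% and 24.7%. By this measure the named windows of Abr, Unk, Gcm2, Bmf, S100a7a, Septin11, Nudt1, Stim1, Rpl3l and Ddr1 lay inside their own gene. That of Riox1 lay inside Heatr4 and that of Ntn5 inside Sec1. The letters searched on both strands in the 300-base promoters were GGGCGG (the GC box), CACGTG (an E-box), TGACGTCA (the cAMP response element), CCAAT and TATAAA. They occurred in 40%, 5.79%, 3.16%, 32.1% and 13.2% of 190 distinct member promoters. The shares were 35.9%, 7.17%, 1.80%, 37.4% and 13.6% of 32544 distinct RefSeq promoters, which are not limited to those of shared windows. TGACGTCA was found in only 6 member promoters. GGGCGG and TGACGTCA contain a CpG, as does CACGTG. A match is a run of letters and not a bound site.

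Promoters near a member window had a median difference near 0, as did neighbours of windows in general. For 144 of the 417 loci, a shared window that did not overlap was centred 2000 to 10000 bp away. The nearest such window had a median difference of 0 points between Tet2KO and young WT and -0.17 points between Tet2KO and old WT. Over all 12810 shared windows with such a neighbour the medians were 0 and -0.32. The neighbour was itself a member at 6 of 144 (4.17%), compared with 1.63% over all shared windows. Tet2KO was 20 points or more above young WT at 8.33% of these neighbours and above both WT pools by any amount at 33.3%, compared with 4.36% and 27.1% over all. Those 6 were 3 pairs seen from both sides, named here after their values were seen. Myt1l, a neuronal transcription factor, had windows on 16 and 29 Tet2KO calls at 68.9%, 70.9% and 93.8% and at 47.2%, 45.9% and 72.4% in young WT, old WT and Tet2KO. Dhcr7, the last enzyme of cholesterol synthesis, was at 8.13%, 6.20% and 28.8% beside a window at 23.8%, 12.2% and 44.6%. Foxp3, the transcription factor of regulatory T cells, was at 40%, 58.7% and 90.5%, from 40, 46 and 42 calls, beside Ppp1r3f on the X chromosome. A Foxp3 window that overlaps a member window was at 50% of 36, 96.3% of 27 and 85.7% of 42 calls, highest in old WT.

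**Figure D5:**
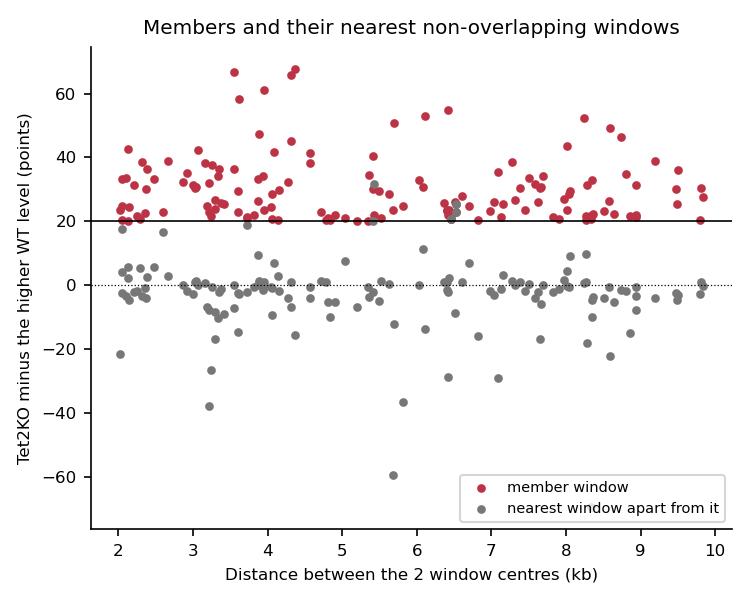
For the 144 loci with a shared window nearby, Tet2KO minus the higher WT level (y axis, points) is plotted against the distance between the 2 window centres (x axis, kb) for the member window (red) and its nearest non-overlapping window (grey). Member windows lie at 20 points or more by choice, while the neighbours lie around 0, with 6 past the line.

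No measured gene of the demethylation, oocyte or germline lists had a member window. Of 8 gene lists, 7 had none. These were the demethylation and methylation machinery (20 genes measured), imprinted genes, mostly those methylated in oocytes (22), germline and meiosis genes (30), oocyte genes (17), granulosa and cumulus markers (15), neuronal synapse and channel genes (25) and spindle, cohesin and checkpoint genes (26). The list of blood and immune cell genes (25 measured) had Was, an actin regulator of blood cells, at 5.41% of 37 calls in young WT, 1.05% of 95 calls in old WT and 31.6% of 19 calls in Tet2KO. Of all 14686 symbols measured, only 182 had a member window, so lists of 15 to 30 genes can lack 1 at the background share. The absence of member windows from these lists is therefore no result about them. Median differences, Tet2KO minus young WT, at 1 window a gene, were -0.11, -1.04, -0.27, -0.40, -1.01, -0.15 and -0.996 points for the 7 lists in that order. The median was -1.16 for the blood and immune list and -0.33 for all symbols.

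In these lists, single genes passed 20 points against young WT without being members or in the other direction. The background of that comparison was 3.29% of windows higher and 3.22% lower, and against old WT 2.09% were higher and 1.94% lower. Cntn1, a neuronal adhesion protein, was at 24.7%, 97.1% and 98.1% in young WT, old WT and Tet2KO, so its level in old WT kept it out. Lower in Tet2KO than in young WT were Meg3, an imprinted lncRNA, at 23.4%, 6.67% and 2.22%, Ptx3, a matrix protein of the cumulus, at 20.4%, 1.93% and 0%, and Sash3, a lymphocyte adaptor, at 53.7%, 73.5% and 7.69%. Their Tet2KO levels rested on 45, 71 and 13 calls. The targeted gene was no member. Its 2 windows at annotated Tet2 starts were at 14% of 214 calls in young WT, 7.12% of 969 calls in old WT and 2.87% of 349 calls in Tet2KO. Promoter methylation does not show a deletion, so this does not check the genotype labels.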

How the data were processed

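Low-input bisulfite libraries of metaphase II oocytes were pooled by group before deposit: 4 of 2-month WT, 3 of 11-month WT and 3 of 2-month Tet2KO. The labels' protocols speak of a single oocyte and the series design of 10 oocytes a sample. Trimmomatic, Bismark (version field 12.5) and mm10 are named in the submitters' processing notes, with roles not given in the sources used here. For each window, methylated CpG calls over 2000 bp are counts as deposited, all CpG calls are the deposited coverage, and a further column gives covered CpG positions. The 3 columns of unmethylated calls, 1 per table, were not used. The deposited fraction is the mean over positions of the methylated share. No listed window had under 10 calls or 5 positions. The table of young WT ends within the X chromosome, and windows beyond were not analysed here.

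Levels, Wilson and Newcombe 95% intervals were computed with Python 3.11.15, numpy 2.4.6 and pandas 2.3.3, and the steps were tested on simulated data. Pooled values allow no test between groups, so no p-value is given. Windows took the symbol of the nearest RefSeq start within 200 bp, on either strand. The strand of the window's own transcript was not matched, and the reference pairs no Ensembl identifiers. The members, lists and naming rule were chosen with earlier results of these data known. The text names, at 1 window a symbol and without predicted, receptor-cluster and clone genes, the 15 largest differences with 50 calls in every pool, the 10 largest, the 10 deepest, 3 windows on each side of the threshold and every list member. Alternatives were the deposited fraction, minimum calls and positions, other thresholds, intervals above 0, calls per position, merged windows and 1 window per symbol.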

Additional observations from a re-analysis of the deposited data

How the results depend on the processing

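The number of member windows (516) changed by more than 1.5 times with minimum calls or positions, with other thresholds and with 1 window per gene symbol. It was 276 with at least 20 calls in every pool, 86 with at least 50 calls, and 154 with at least 20 covered positions. It was 1463 at 10 points, 221 at 30 points, 38 at 50 points and 165 with 1 window per gene symbol. The last leaves out windows without a symbol and keeps the best covered window of each symbol, member or not, so it falls below the 182 symbols with a member window. The windows higher in Tet2KO than in 2-month WT (1332) became 752, 242, 409, 2921, 690, 200 and 382 under the same alternatives. Those higher than in 11-month WT (847) became 468, 145, 240, 2300, 398, 69 and 261. The deposited fraction (491 windows), intervals above 0 (416), leaving out windows over 10 calls per position (513) and merging overlaps (417) stayed within 1.5 times. Of the 491 windows by the deposited fraction, only 328 were among the 516, so a similar count did not mean the same windows. The median Tet2KO calls of member windows rose from 23 to 38.5 and 79.5 with at least 20 and 50 calls in every pool, and covered positions from 14 to 38 at 50, by the construction of these alternatives. By the deposited fraction, 15 of 68 differences of named windows left the counting interval and 0 changed sign. No replicate could be left out, and the spread between libraries is unknown. No paired analysis was possible because the deposited values are pooled by group.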
